A study of Mus musculus with 48 samples.

Results

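The effect of BuOE on gene expression during spaceflight was examined in the brain cortex (region CT) by comparing flight mice given BuOE (FLT-BuOE) with flight mice given saline (FLT-SAL). The comparison rested on 6 of the 48 areas of illumination (AOIs) of the series, 1 from each of 3 FLT-BuOE and 3 FLT-SAL mice, which were chosen by the region, treatment and slide in their labels. Genes of the myelin sheath were read separately from genes of neurons.

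All mice were C57BL/6 males, 10 weeks old at launch. The flight mice were kept on the International Space Station for 35 days and reached the laboratory within 20 h of splashdown. BuOE (MnTnBuOE-2-PyP5+, 1 mg/kg in 0.2 mL) was injected subcutaneously from 7 days before launch and then weekly, and FLT-SAL mice were given saline in its place. Ground mice given BuOE (GC-BuOE) or saline (GC-SAL), 3 in each group, lived in flight hardware cages for 35 days on a schedule that began 3 days later. In GeoMx digital spatial profiling, tagged probes hybridize to the transcripts of a tissue section, and UV light releases the tags of a chosen area for sequencing. The areas were picked on sections of the left hemibrain with the help of morphology stains, and each held all the cell types of its piece of cortex.

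Oligodendrocytes wrap axons in myelin, a stack of membranes held together by a small set of very abundant proteins that include Mbp and Mobp. In the cortex, myelin is denser in the deep layers than in the superficial ones, and the neurons of each layer express their own markers. BuOE, a manganese porphyrin, acts like superoxide dismutase, which clears superoxide from cells.

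Each group of 3 mice had its sections on a slide of its own, so slide and group cannot be told apart. The CT areas of the groups also differed in size and depth. The labels gave an area of 144580 for each FLT-BuOE mouse and 224546 for each FLT-SAL mouse, with no unit, and 416 to 448 against 549 to 598 nuclei. Deduplicated counts ran from 545668 to 916917 in FLT-BuOE and from 988810 to 1440631 in FLT-SAL. Ground areas ran from 146259 to 244534, and the area of GC-SAL mouse 1 held 140 nuclei. Values were normalized to the upper quartile (Q3) of each AOI, which set that quartile to 40.02 in every CT AOI, and the negative-control probes, which have no target in the transcriptome, lay between 13.33 and 16.83. Slc17a7, the vesicular glutamate transporter of cortical excitatory neurons, averaged 237.9 ± 46.4 (SD, n = 12 AOIs) in CT and 166.4 ± 21.6 in the dentate gyrus (DG). Markers of dentate granule cells were low in CT, with Prox1 at 27.17 ± 5.19 in CT and 112.2 ± 15.5 in DG and C1ql2 at 25.18 ± 5.45 in CT and 95.39 ± 17.8 in DG.

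In the cortex of flight mice, 11 of 15782 genes differed between FLT-BuOE and FLT-SAL (0.0697%), with an adjusted p (limma, Benjamini-Hochberg over all genes) below 0.05 and a difference of more than 1.5-fold. 8 genes fell with BuOE (0.0507%). 7 of them, including Mobp, Cldn11, Mbp, Apod, Ptgds and Cryab, belong to the lists of myelin or oligodendrocyte genes, and the other was Crym, a deep-layer marker. 3 genes rose (0.019%), namely Lamp5, Kcnh5 and the activity-induced gene Egr1. For each of the 11 genes the 3 FLT-BuOE values lay wholly on one side of the 3 FLT-SAL values, as they did for 849 genes on the higher side (5.38%) and 945 on the lower side (5.99%) of all 15782. The median log2 difference over all genes was -0.0164, and 905 genes had an unadjusted p below 0.05. A test of the counts with edgeR gave all 11 genes an adjusted p below 0.05, and its own calls were 7 higher and 9 lower.

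**Figure D1:**
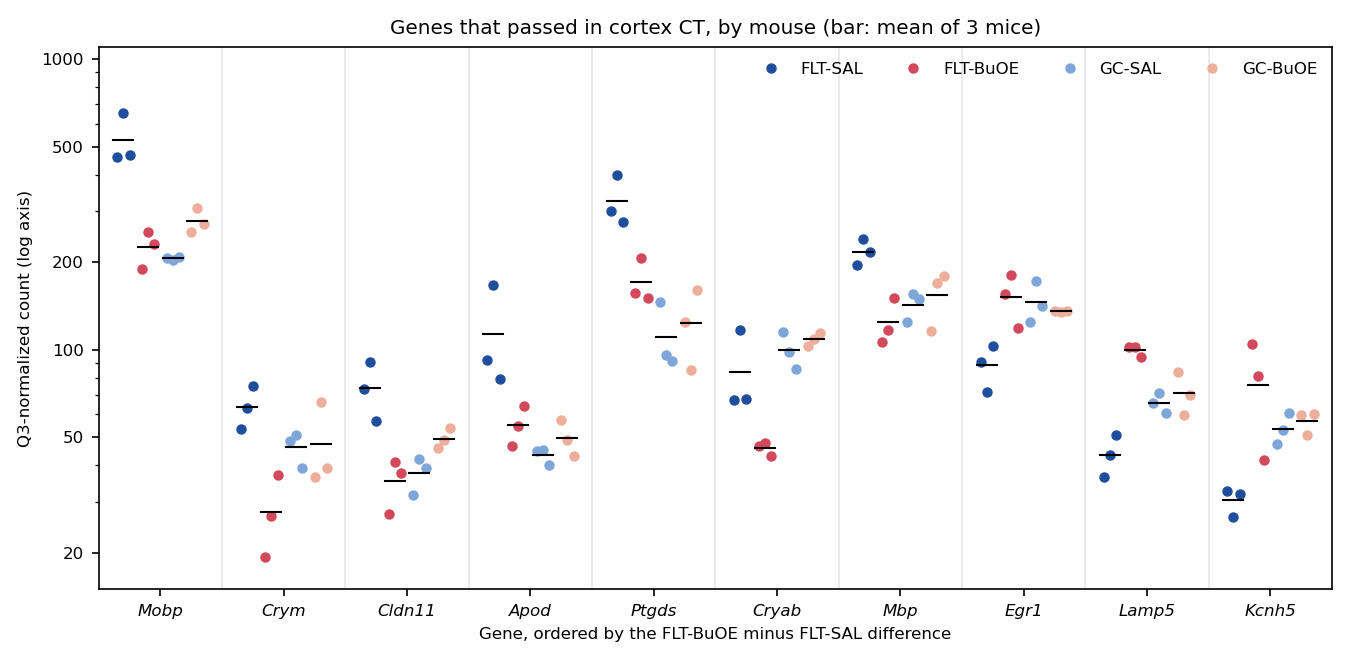
Q3-normalized count (log axis) of genes that passed in cortex CT, with 1 point for each mouse and a bar at the mean of the 3 mice of a group. The FLT-SAL points of Mobp lie between 459.2 and 653.4, above every other group, while those of Lamp5 lie between 36.38 and 50.8, below every other group.

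Genes of the myelin membrane were among the largest falls. Mobp (myelin-associated oligodendrocyte basic protein, chr9:120149707-120181484 on GRCm38) had Q3-normalized counts of 459.2, 653.4 and 466.4 in the FLT-SAL mice and 189.8, 253.5 and 230.9 in the FLT-BuOE mice. The highest BuOE mouse was thus well below the lowest saline mouse. On the log2 scale Mobp fell by 1.22 (SE 0.16, adjusted p = 1.1e-05), a 2.32-fold lower level. Mbp (myelin basic protein, which seals the cytoplasmic faces of the sheath) was at 195.0, 239.6 and 217.0 with saline and at 105.9, 116.7 and 150.9 with BuOE. Its change was smaller, a fall of 0.81 (SE 0.16, adjusted p = 0.016). In an AOI that mixes cell types, fewer oligodendrocytes and less RNA in each of them cannot be told apart.

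Cldn11 (claudin 11, which forms the tight junctions of the sheath, chr3:31149920-31164324) read 73.5, 90.55 and 56.96 with saline and 27.11, 41.13 and 37.71 with BuOE. It fell by 1.04 (SE 0.18, adjusted p = 0.0022). The further myelin genes did not pass. The nearest was Cnp, a phosphodiesterase of non-compact myelin, with 114.2, 148.6 and 110.3 against 81.34, 72.26 and 77.74 and a log2 difference of -0.67 (adjusted p = 0.089). Mog, on the outer face of the sheath, differed by -0.54, Jam3 by -0.60 and Ermn by -0.58, each with groups that did not overlap and adjusted p-values from 0.47 to 0.51. Nfasc, which anchors the sheath beside the node, differed by -0.25 and Omg by -0.13.

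Over the whole myelin sheath list, 20 of 21 genes were measured and Mal was not analysed here. 4 of the 20 passed, all lower, and 18 had a negative difference, where 53.0% of all genes did. The median of the list was -0.51, beside -0.0164 for all genes and a range from the 5th to the 95th percentile of all genes of -0.38 to 0.34. In 10 of the 20 the FLT-BuOE mice all lay below the FLT-SAL mice and in 0 they all lay above. Over all genes these shares were 5.99% and 5.38%. The members with a positive difference were Plp2 at 0.36 and Gjb1 at 0.14, neither of which passed. The summed level of the list was 1811, 2392 and 1789 in the FLT-SAL mice and 1110, 1217 and 1213 in the FLT-BuOE mice. FLT-SAL mouse 2 was the highest, and the groups did not overlap. Abundant genes such as Mobp weigh most in this sum. With each gene counted equally, the mean of log2(Q3 + 1) was 5.76 to 6.14 in FLT-SAL and 5.42 to 5.53 in FLT-BuOE.

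The GC-SAL mice had summed myelin levels of 1135, 1182 and 1193, close to those of FLT-BuOE, and the GC-BuOE mice had 1264, 1395 and 1489. The mean of log2(Q3 + 1) over the list was 5.39 to 5.58 in GC-SAL and 5.53 to 5.73 in GC-BuOE. The highest GC-BuOE mouse was thus close to the lowest FLT-SAL mouse, at 5.76. The labelled areas of GC-SAL mice 1, 2 and 3 were 146259, 244534 and 204872, with 140, 578 and 500 nuclei. The part of area and depth in the flight difference was not tested.

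3 genes of the list of oligodendrocyte enzymes and regulators also fell. Apod (apolipoprotein D, a lipid carrier, chr16:31296192-31314808) was at 92.42, 167.1 and 79.53 with saline and at 46.48, 54.48 and 63.88 with BuOE, a fall of 0.96 (SE 0.19, adjusted p = 0.011). Ptgds (lipocalin-type prostaglandin D synthase, chr2:25466709-25470046), which the meninges also make, was at 300.5, 399.7 and 274.0 against 156.2, 206.8 and 150.9, a fall of 0.91 (SE 0.18, adjusted p = 0.014). Cryab (the small heat shock protein alpha B-crystallin, chr9:50751325-50756636) was at 66.95, 117.1 and 67.73 against 46.48, 47.81 and 43.1, a fall of 0.81 (SE 0.17, adjusted p = 0.030). In all 3 genes FLT-SAL mouse 2 was the highest of the flight mice.

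Of 29 measured genes in this list, no other passed. The median was -0.33, and 25 of the 29 differences were negative, as were 53.0% of all genes. In 13 the FLT-BuOE mice lay wholly below the FLT-SAL mice, as in 5.99% of all genes. Sox10, the transcription factor that defines the lineage, differed by -0.45 (adjusted p = 0.73) and its mice overlapped. Olig2 differed by -0.67 with 50.94, 63.54 and 50.29 against 19.37, 46.69 and 43.1, and Plekhb1 by -0.75 (adjusted p = 0.089). The 6 measured markers of oligodendrocyte precursors had a median of -0.04, and 0 of the 6 had separate groups. Over all genes, 5.99% were separate on the lower side and 5.38% on the higher side, so 6 genes are too few to show a difference from that share. Their summed level was 179.1 to 182.7 with saline and 159.0 to 210.4 with BuOE.

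Among genes expressed by neurons, Lamp5 and Kcnh5 rose and Crym fell. Lamp5 (a lysosome-associated membrane protein found in superficial neurons and in a class of interneurons, chr2:136052239-136069917) was at 36.38, 43.53 and 50.8 in FLT-SAL and at 102.0, 102.3 and 94.67 in FLT-BuOE. The 3 BuOE mice were close to each other, and the gap to saline was wider than the range within either group. Lamp5 rose by 1.19 (SE 0.16, adjusted p = 2.1e-05), a 2.28-fold higher level. Kcnh5 (a voltage-gated potassium channel, chr12:74897220-75177332) was at 32.75, 26.52 and 31.81 with saline and at 104.6, 81.16 and 41.56 with BuOE, a rise of 1.20 (SE 0.20, adjusted p = 8.4e-04). FLT-BuOE mouse 3 was far below the other two, though still above all saline mice.

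Crym (mu-crystallin, which binds thyroid hormone in the cytosol, chr7:120186380-120202111) was lower with BuOE. It was at 53.12, 63.04 and 74.92 with saline and at 19.37, 26.68 and 36.94 with BuOE, a fall of 1.21 (SE 0.20, adjusted p = 8.4e-04). The ground mice ran from 36.59 to 66.04 and overlapped both flight groups.

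The sequences around the start sites of 2 genes that fell and 2 that rose are shown so that the promoter windows of both directions can be compared. RefSeq promoters (GRCm38.p6, 250 bases before to 50 after the start, written 5′ to 3′ on the strand of the gene) were on hand for 6 of the 11 genes. The letters in capitals mark matches on either strand to ACAAAG, the core of SOX sites, to CAGCTG, an E-box, to CTGGCAC, the site of the myelin factor Myrf, to TGACG, which is part of a cyclic AMP response element, and to TATAAA, and none of these motifs overlapped another in the 4 windows.
Mobp, chr9:120149492-120149791 (+): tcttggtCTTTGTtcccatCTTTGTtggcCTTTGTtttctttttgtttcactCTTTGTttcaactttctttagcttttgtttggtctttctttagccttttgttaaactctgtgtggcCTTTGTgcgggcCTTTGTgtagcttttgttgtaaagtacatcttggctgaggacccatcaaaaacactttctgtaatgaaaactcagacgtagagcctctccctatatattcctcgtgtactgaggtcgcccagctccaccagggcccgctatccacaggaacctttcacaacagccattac
Cldn11, chr3:31149670-31149969 (+): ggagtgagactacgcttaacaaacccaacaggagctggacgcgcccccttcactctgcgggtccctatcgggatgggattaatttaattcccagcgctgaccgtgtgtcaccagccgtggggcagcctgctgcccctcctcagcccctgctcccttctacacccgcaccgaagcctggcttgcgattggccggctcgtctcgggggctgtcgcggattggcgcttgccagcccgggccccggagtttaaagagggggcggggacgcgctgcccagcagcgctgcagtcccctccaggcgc
Lamp5, chr2:136052089-136052388 (+): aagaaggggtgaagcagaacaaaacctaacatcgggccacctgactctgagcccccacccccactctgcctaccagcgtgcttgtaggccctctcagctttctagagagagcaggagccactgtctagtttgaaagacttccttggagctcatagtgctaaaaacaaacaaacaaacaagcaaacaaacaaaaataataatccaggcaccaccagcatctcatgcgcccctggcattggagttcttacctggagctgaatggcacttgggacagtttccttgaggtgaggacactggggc
Kcnh5, chr12:75177283-75177582 (-): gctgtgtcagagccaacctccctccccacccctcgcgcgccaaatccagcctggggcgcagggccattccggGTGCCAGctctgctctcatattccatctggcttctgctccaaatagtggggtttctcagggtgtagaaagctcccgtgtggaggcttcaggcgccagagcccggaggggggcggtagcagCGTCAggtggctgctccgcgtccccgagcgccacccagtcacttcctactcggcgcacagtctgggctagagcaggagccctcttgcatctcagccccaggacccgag
The Mobp window held 6 matches to the SOX core, all as CTTTGT, from position -243 to -120 of the start. The Cldn11 and Lamp5 windows held 0 matches, as did a second Lamp5 window (chr2:136057498-136057797) that is not shown. Windows of Apod and Ptgds, which also fell, are not shown and held 2 and 3 matches to the 5 motifs. The Kcnh5 window held GTGCCAG at -178 and CGTCA at -58. Of 32851 RefSeq promoters of this length, 18.7% held ACAAAG at least once, 16.3% CAGCTG, 5.0% CTGGCAC, 20.8% TGACG and 13.6% TATAAA. The share of promoters with several copies, as in Mobp, was not counted.

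Markers of the upper cortical layers were mostly higher in FLT-BuOE and those of the deep layers mostly lower. Of 13 upper-layer genes 0 passed, but 12 differences were positive, where 47.0% of all genes had a positive difference, and the median was 0.39. The nearest to the threshold was Cux2, a transcription factor of superficial projection neurons, at 45.12, 30.52 and 32.84 with saline and 77.46, 77.82 and 43.87 with BuOE (0.83, adjusted p = 0.089). FLT-BuOE mouse 3 overlapped the saline mice. Stard8 and Wfs1 were the 2 genes with separate groups, both higher, as in 5.38% of all genes. Of 17 deep-layer genes 1, Crym, passed, and the median was -0.33. In this list 14 differences were negative, as were 53.0% of all genes. Hs3st4, a heparan sulfate sulfotransferase, differed by -0.82 (adjusted p = 0.089), with groups that did not overlap, as in Crym, Sulf2 and Rprm. Over all genes, 5.99% were separate on the lower side.

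The summed upper-layer level was 454.1, 376.7 and 365.3 in FLT-SAL and 619.7, 574.8 and 438.7 in FLT-BuOE. The deep-layer sum was 799.7, 870.5 and 938.0 against 579.7, 697.1 and 767.4. FLT-BuOE mouse 3, which had the lowest Kcnh5 of its group, also had the lowest upper-layer and the highest deep-layer sum of its group. On the ground the upper-layer sums were 431.8 to 521.2 in GC-SAL and 421.6 to 489.4 in GC-BuOE, and the deep-layer sums were 645.0 to 966.6 and 835.9 to 902.8. The part of the position of an area across the layers in the differences of myelin and neuronal genes was not tested.

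**Figure D2:**
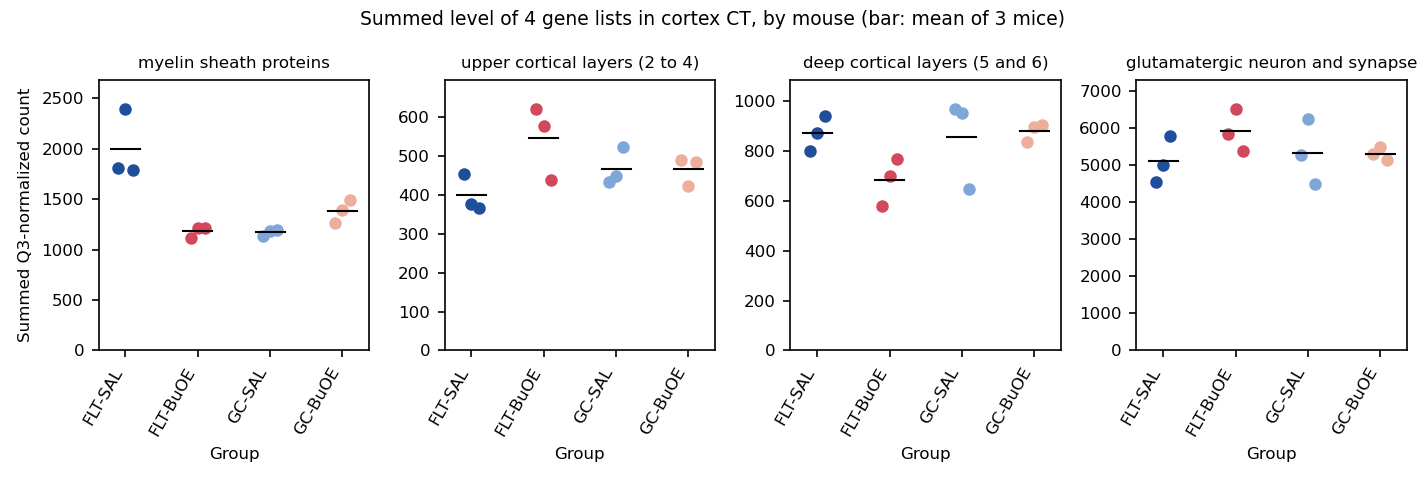
Summed Q3-normalized count of 4 gene lists in each of the 12 mice, with a bar at the group mean. The myelin sum, in which abundant genes weigh most, is highest in the 3 FLT-SAL mice (1789 to 2392 against 1110 to 1489 in the other 9). The upper-layer sum of FLT-BuOE overlaps FLT-SAL through a single mouse at 438.7.

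General neuronal genes differed by -0.54 to 0.22. Of 30 pan-neuronal genes 0 passed, the median was -0.13, and 24 differences were negative, as were 53.0% of all genes. Snap25, of the vesicle fusion machinery, was at 646.2, 692.9 and 923.6 with saline and 633.9, 831.6 and 625.7 with BuOE (-0.11, adjusted p = 0.99). Eno2, the neuronal enolase, differed by -0.30, Vamp2 by -0.24, Syp by -0.13 and Rtn1 by -0.06, and all 5 of these genes overlapped between groups. Groups were separate in 5 genes, all lower, namely Tubb3, Elavl3, Uchl1, Ina and Celf4, as in 5.99% of all genes. The summed level was 5712 to 7087 with saline and 5155 to 6447 with BuOE.

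The 25 genes of glutamatergic neurons and synapses had a median of 0.02 and 0 passed. Their differences were positive in 15, where 47.0% of all genes had a positive difference. Nrgn, a calmodulin-binding protein of dendrites, was at 1338, 1511 and 1881 with saline and 2254, 2397 and 1810 with BuOE (0.45, adjusted p = 0.86), and its groups overlapped through FLT-BuOE mouse 3. Camk2a differed by 0.30, Grin1 by 0.23 and Dlg4 by 0.22, against -0.29 for the vesicular transporter Slc17a7. Without overlap, 2 of the 25 genes were higher, Hpca among them, and 1, Camk2b, was lower. Over all genes these shares were 5.38% and 5.99%. The list summed to 4531 to 5774 with saline and 5366 to 6513 with BuOE.

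Of 20 genes of GABAergic interneurons, Lamp5 passed. The median was -0.14 and 15 differences were negative, as were 53.0% of all genes. Sst, the neuropeptide somatostatin, was at 67.68, 120.1 and 70.3 with saline and 21.95, 51.14 and 62.34 with BuOE, and did not pass (-0.99, SE 0.24, adjusted p = 0.11). The synthetic enzymes differed by -0.35 (Gad1) and -0.64 (Gad2), and Pvalb by -0.14. Groups were separate and lower in Sst, Slc32a1 and Tac1, as in 5.99% of all genes.

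**Figure D3:**
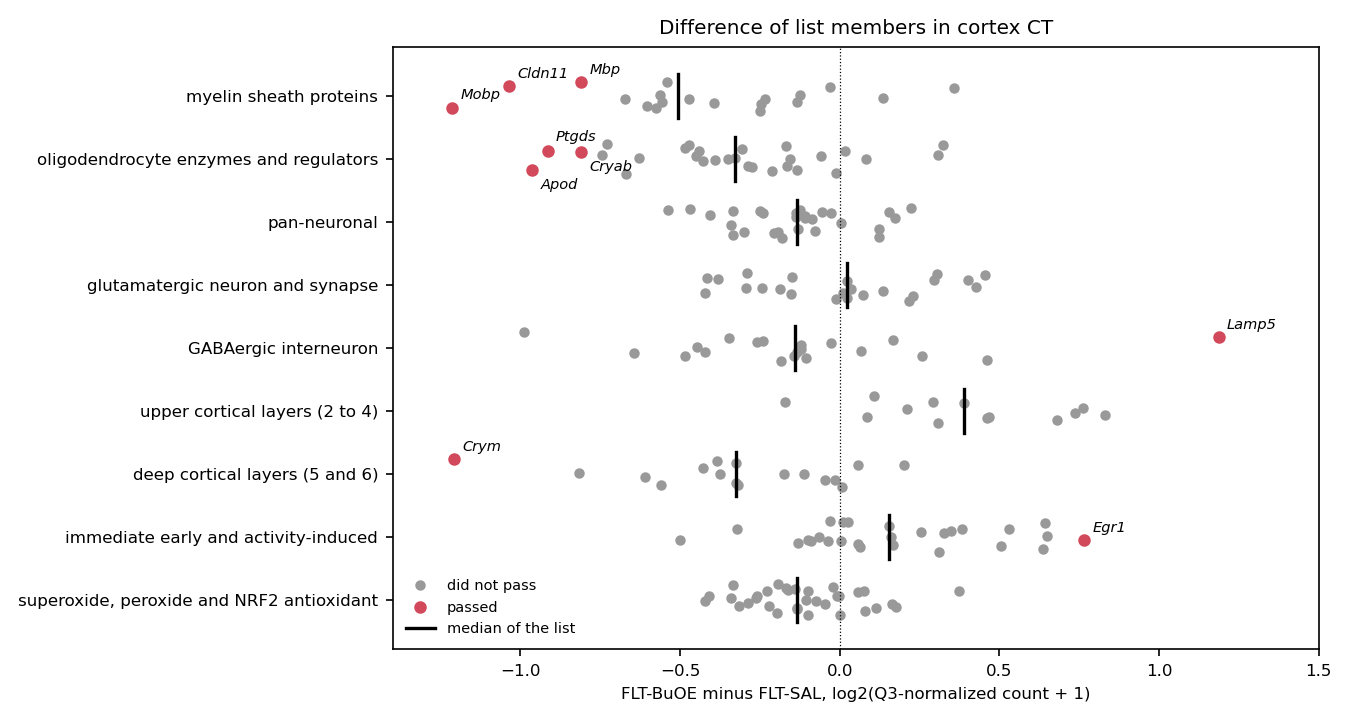
FLT-BuOE minus FLT-SAL difference in cortex CT, on the log2 scale, of members of 9 gene lists, with a bar at the list median. The myelin median lies at -0.51, the pan-neuronal at -0.13, the glutamatergic at 0.02 and the upper-layer at 0.39, and red points mark the genes that passed.

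Genes induced by neuronal activity were on the higher side. Egr1, an immediate early transcription factor, was at 90.96, 71.54 and 102.6 in FLT-SAL and 154.9, 181.2 and 118.5 in FLT-BuOE, and rose by 0.77 (SE 0.16, adjusted p = 0.030). Arc, a synaptic immediate early gene, was at 128.8, 92.55 and 105.7 against 202.7, 169.0 and 139.3, without overlap but short of the threshold (0.64, SE 0.17, adjusted p = 0.16). Nr4a1 differed by 0.65 and Npas4 by 0.64, also without overlap. Of the 27 genes, with a median of 0.16, 1 passed and 19 were positive, where 47.0% of all genes were. 7 had FLT-BuOE mice wholly above FLT-SAL mice, as did 5.38% of all genes. The sum was 1140 to 1252 with saline and 1385 to 1509 with BuOE, beside 1492 to 1965 in GC-SAL and 1603 to 1700 in GC-BuOE. Abundant genes such as Arc and Egr1 weigh most in it. With each gene counted equally, the mean of log2(Q3 + 1) was 5.225 to 5.389 with saline and 5.396 to 5.517 with BuOE in flight. The flight groups nearly touched on that measure.

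Genes that handle superoxide and peroxide, the chemistry that BuOE acts on, and other antioxidant genes did not pass in either direction (0 of 33). Sod1 was at 107.0, 124.6 and 139.6 with saline and 117.5, 123.4 and 110.1 with BuOE (-0.07, SE 0.16), and Sod2 was at 92.42, 89.55 and 92.36 against 54.22, 105.6 and 100.8 (-0.13, SE 0.18). The other abundant members differed by -0.20 (Mt1), -0.19 (Gpx4), -0.41 (Gstp1) and -0.004 (Prdx5). The list median was -0.13, with 25 negative differences, where 53.0% of all genes had one. 4 genes were separate on the lower side (Gstp1, Hmox2, Srxn1 and Msrb1) and Prdx1 on the higher side. Over all genes, 5.99% were separate on the lower side and 5.38% on the higher side.

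The remaining lists held no gene that passed. Medians were -0.11 for 21 astrocyte genes, -0.19 for 16 microglial genes, -0.09 for 16 genes of endothelium and mural cells, 0.11 for 12 genes of meninges and fibroblasts, 0.09 for 5 genes of choroid plexus and ependyma and -0.01 for 16 genes of hippocampus and striatum. The meningeal sum was 255.5 to 270.2 with saline and 264.6 to 311.1 with BuOE, and 8 of its 12 genes, among them the collagen Col1a1, averaged under 1.5 times the negative-control probes. The microglial sum was 601.8 to 626.9 with saline and 508.1 to 560.3 with BuOE. With each gene counted equally the groups overlapped, with means of log2(Q3 + 1) from 4.8101 to 4.9875 and from 4.6297 to 4.8107. Of the 16 microglial genes, 2 were separate and lower, as in 5.99% of all genes. Only 11 of the 16 averaged at least 1.5 times the negative-control probes. Medians were -0.08 for 34 genes of the mitochondrial respiratory chain, -0.13 for 35 genes of the extracellular matrix and integrins, -0.01 for 16 heat shock and cold-inducible genes and -0.13 for 19 glucocorticoid-responsive genes.

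The calls depended on single mice to different degrees. Mobp and Lamp5 passed whichever of the 12 mice was left out. Without FLT-SAL mouse 2 the calls lost included those of Cldn11, Mbp, Ptgds, Apod, Cryab and Egr1, with log2 differences of -0.88, -0.74, -0.76, -0.64, -0.55 and 0.62. Without FLT-BuOE mouse 1 those of Crym, Kcnh5, Cldn11, Mbp, Ptgds, Apod, Cryab and Egr1 were lost, at -0.98, 0.92, -0.86, -0.70, -0.86, -0.85, -0.82 and 0.74. Without FLT-BuOE mouse 2 Mbp, Apod, Cryab and Egr1 were lost (-0.77, -0.96, -0.84 and 0.63), without FLT-BuOE mouse 3 Ptgds and Cryab (-0.83 and -0.77), without FLT-SAL mouse 3 Mbp (-0.81) and without FLT-SAL mouse 1 Egr1 (0.79). Leaving out GC-BuOE mouse 3, which changes only the estimate of the spread, ended the calls of Egr1 and Cryab.

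The same treatment was compared on the ground (GC-BuOE against GC-SAL), where the mice did not fly. 0 of 15782 genes passed (0%) in limma, edgeR and DESeq2, and 596 had an unadjusted p below 0.05. Mobp was at 207.4, 202.7 and 208.5 in GC-SAL and 253.9, 308.2 and 270.9 in GC-BuOE, a log2 difference of 0.42 (SE 0.16) with groups that did not overlap. Cldn11 was at 31.53, 41.93 and 39.09 against 45.74, 48.69 and 53.88 (0.40). In these genes the ground BuOE mice thus had higher values than ground saline mice, where flight BuOE mice had lower values than flight saline mice. The median of the myelin list on the ground was 0.15, with 18 of 20 differences positive, where 49.29% of all genes were. In 4 genes, among them Mobp, Cldn11 and Pllp, GC-BuOE mice lay wholly above GC-SAL mice, as in 3.92% of all genes. In 0 of the 20 they lay wholly below, as in 4.28% of all genes. The glutamatergic and pan-neuronal medians were -0.01 and 0.05, and Lamp5, Kcnh5 and Egr1 differed by 0.10, 0.09 and -0.10.

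The difference between flight and ground was tested as an interaction, in which no mouse enters both differences. 3 of 15782 genes passed (0.019%), all of them myelin genes, among them Mobp (-1.64, SE 0.23, adjusted p = 3.9e-05) and Cldn11 (-1.43, SE 0.26, adjusted p = 0.0070). The call of Cldn11 was lost without FLT-SAL mouse 2 (-1.27), GC-SAL mouse 1 (-1.32), FLT-BuOE mouse 1 (-1.26) or GC-BuOE mouse 3 (-1.37). It was also lost in DESeq2 (-1.42, adjusted p = 0.13) and without the mean-variance trend (-1.43, adjusted p = 0.26), where Mobp passed in every alternative run. Lamp5 gave 1.09 (SE 0.23, adjusted p = 0.089). The other 7 genes that passed in flight gave adjusted p-values from 0.20 to 0.44, with differences of -1.20 for Crym and 1.11 for Kcnh5.

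**Figure D4:**
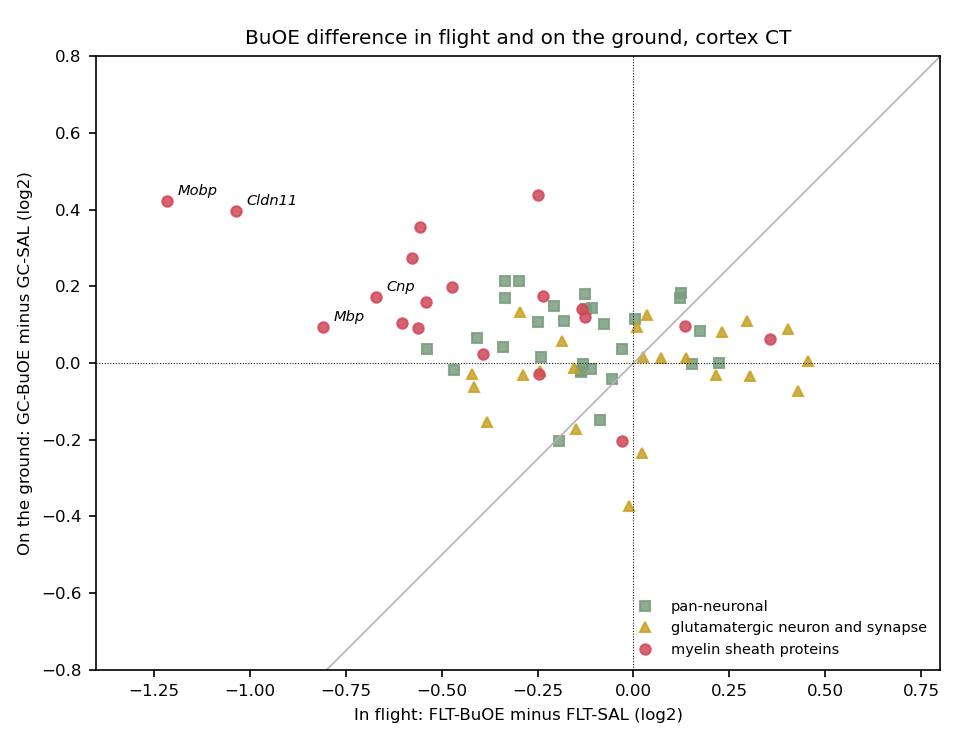
BuOE difference on the ground (vertical axis) against that in flight (horizontal axis), both on the log2 scale, for genes of 3 lists in cortex CT, with the line of equal differences. Mobp and Cldn11 lie at -1.22 and -1.04 in flight and at 0.42 and 0.40 on the ground, while the neuronal genes lie between -0.54 and 0.45 in flight.

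The FLT-SAL mice also serve in the comparison of flight with ground among saline mice (FLT-SAL against GC-SAL), so the 2 comparisons share the 3 FLT-SAL mice and their opposite signs are not independent. Values are therefore given side by side. Of all genes, 10 were called higher (0.0634%) and 4 lower (0.0253%) in FLT-SAL. Mobp differed by 1.33 with flight in saline mice and by -1.22 with BuOE in flight, Cldn11 by 0.94 and -1.04, Apod by 1.29 and -0.96 and Ptgds by 1.56 and -0.91, and these 4 passed in both comparisons. Mbp (0.60), Crym (0.45), Lamp5 (-0.59), Kcnh5 (-0.80) and Egr1 (-0.72) did not pass with flight in saline mice. Cryab did not reverse, at -0.28 and -0.81. Its FLT-BuOE mean of 45.8 ± 2.4 was below both GC-SAL (99.6 ± 14.9) and GC-BuOE (108.5 ± 5.5; SD, n = 3). Arc differed by -1.56 and 0.64, and its FLT-BuOE mean of 170.3 ± 31.7 remained below the GC-SAL mean of 327.4 ± 81.4.

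3 further genes that the study named for CT did not pass with BuOE in flight. Itga7, an integrin subunit that binds laminin, was at 24.74, 26.52 and 35.92 with saline and 20.66, 14.45 and 20.78 with BuOE (-0.61, SE 0.24, adjusted p = 0.70), close to the level of the negative-control probes. Gm9936 (22.4 ± 1.9 against 20.0 ± 2.0) differed by -0.16. Prepl, a peptidase-like hydrolase, was at 89.0 ± 11.8 against 80.0 ± 14.5 and also differed by -0.16.

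The same 6 flight mice gave AOIs in the frontal cortex (FCT), hippocampal CA and DG, whose tables were normalized separately. In FCT, 5 genes passed (0.0317%), and Egr1, at 1.14 (SE 0.22, adjusted p = 0.030), was the gene shared with CT. The others were Arc (1.77), Junb (1.22), Tshz2 (-1.36) and St6galnac5 (-1.08). All 11 CT genes had the same sign in FCT, with Mobp at -0.82, Mbp at -0.67, Crym at -0.62 and Lamp5 at 0.22. Of all genes, 61.27% had a negative and 38.73% a positive difference in FCT. The FCT areas came from the same mice and slides. The myelin median in FCT was -0.35, beside -0.0691 for all genes. The median of glutamatergic genes in FCT was 0.27 and that of upper-layer genes 0.11.

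A test of CT minus FCT within mice gave 0 of 15782 genes (0%) in limma, the tool used here, with 875 at an unadjusted p below 0.05. The largest difference among the 11 was that of Lamp5, 0.96 (SE 0.24, adjusted p = 0.23). In FCT, Lamp5 was at 52.6, 50.03 and 37.77 with saline and 74.33, 41.8 and 51.28 with BuOE, with overlap.

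In the hippocampus, 1 gene passed in CA (Cpne7, 0.00634%) and 0 in DG (0%) in limma, with 782 and 978 at an unadjusted p below 0.05. The myelin median was -0.19 in CA, with 18 of 20 differences negative, and 0.12 in DG, with 7 negative. Of all genes, 58.12% were negative in CA and 53.97% in DG. Mobp differed by -0.34 in CA and 0.26 in DG, and Lamp5 by -0.28 and 0.05. All 11 genes that passed in CT had a negative difference in CA, as did 58.12% of all genes. The 8 with the CT sign there were those that fell in CT. In DG 2 of the 11 had the CT sign. A test of CT minus CA, added after the data were seen, gave 9 genes (0.057%), with Lamp5 at 1.47, Egr1 at 1.16 and Mobp at -0.87 among them (adjusted p = 0.0020, 0.0020 and 0.019). The test of CT minus DG, also added, gave 15 genes (0.095%). Mobp (-1.48), Ptgds (-1.38), Crym (-1.35), Cldn11 (-1.20), Mbp (-0.85), Kcnh5 (1.39) and Lamp5 (1.14) were among them, at adjusted p-values from 2.3e-09 to 0.038.

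**Figure D5:**
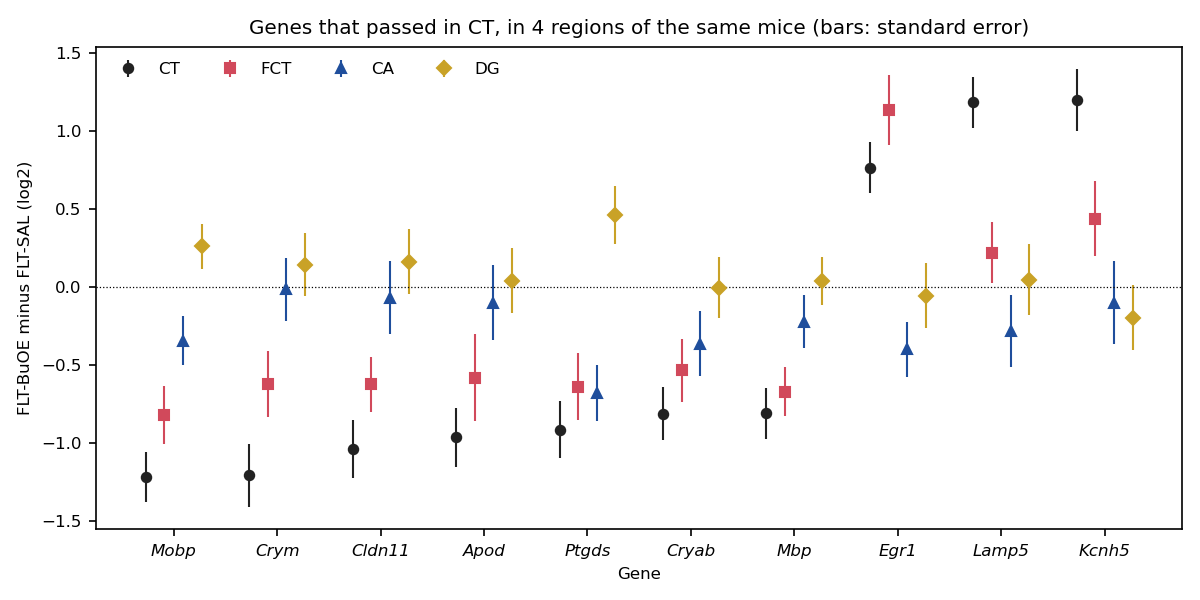
FLT-BuOE minus FLT-SAL difference on the log2 scale of genes that passed in CT, in the 4 regions of the same mice, with bars of 1 standard error. The CT points of the lower genes lie between -1.22 and -0.81, the FCT points follow them at smaller size, and the DG points lie around or above zero.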

How the data were processed

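Transcripts were counted by digital spatial profiling (GeoMx), and the 12 CT AOIs (1 per mouse, 3 mice per group) entered the fit. The authors trimmed, stitched and aligned reads to probe tags and removed duplicates (GeoMx NGS Pipeline 2.3.4), and deposited counts of 20175 probes per AOI. They then deposited a signal normalized to the upper quartile (Q3) for 15782 genes per region. Their tables of comparisons (fold changes and p-values) were not used. CT counts per AOI ran from 545668 to 1440631.

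Groups were taken from the labels. log2(Q3 + 1) was fitted with limma 3.58.1 (R 4.3.3), group as the only factor, 8 residual degrees of freedom, a mean-variance trend, no filter on low values, and Benjamini-Hochberg adjustment over 15782 genes. Genes passed with an adjusted p below 0.05 and a difference of over 1.5-fold (no fold limit for interactions and differences between regions). The 3 against 3 mice cannot give a two-sided permutation p below 0.1. Counts (whole in 99.976% of values, within 0.02; 15777 genes matched to 1 probe) were tested with edgeR 4.0.16 and DESeq2 1.42.0 as alternatives, beside other pseudocounts, scalings, filters, background subtraction, a replicate block and each mouse left out. Scripts were tested on simulated data. No replicate pair agreed within sampling noise (chi-square per gene 1.17 to 2.30).

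The genes named were those that passed with separate groups, the abundant members of the lists and the genes the study named for CT. Others were named because they were few, after their values were seen. Some genes are not reported here. The members, the 20 gene lists and the tests were chosen with earlier results of these data known. The lists hold genes that the study picked from these samples (Mobp, Apod, Ptgds, Arc and Itga7) and are not independent evidence. Coordinates are those of GENCODE vM21 on GRCm38.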

Additional observations from a re-analysis of the deposited data

Results flagged for a closer look

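Mobp and Cldn11, both myelin genes, had a BuOE difference in flight that differed from that on the ground in the test of the interaction (limma, 12 CT AOIs). Mobp gave -1.64 and Cldn11 gave -1.43 on the log2 scale, flight minus ground. The call of Cldn11 was lost in DESeq2 (adjusted p = 0.13), without the mean-variance trend (adjusted p = 0.26) and when FLT-SAL mouse 2, GC-SAL mouse 1, FLT-BuOE mouse 1 or GC-BuOE mouse 3 was left out. In both genes, all 3 FLT-BuOE mice lay below the 3 FLT-SAL mice, and all 3 GC-BuOE mice lay above the 3 GC-SAL mice. The group and the slide cannot be told apart in either part of the test.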

How the results depend on the processing

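The differences of the 11 genes that passed, of Arc, Prepl, Gm9936 and Itga7, and the myelin and pan-neuronal medians kept their sign in every alternative run. The glutamatergic median, 0.02, was -0.00084 without FLT-SAL mouse 2. Of the 11 genes that passed, all 11 were also called with pseudocount 5, with a filter at 1.5 times the negative-control probes, with edgeR and with DESeq2 (which gave an adjusted p for 4765 genes), 10 with the 6 flight AOIs alone (Cryab lost), 9 with median-of-ratios scaling (Egr1 and Cryab lost), 6 after subtracting the negative-control value (Mbp, Egr1, Ptgds, Apod and Cryab lost) and 2 (Mobp and Lamp5) without the mean-variance trend. The count of genes higher, 3, was 1 without the trend and 7 in edgeR, and the count lower, 8, was 1 without the trend and 4 after background subtraction. The interaction count, 3, was 1 without the trend and 2 in DESeq2. Background subtraction took CT minus CA from 9 to 5 genes, CT minus DG from 15 to 9, and the myelin median from -0.51 to -0.83. The cause was not tested, beyond the change each setting makes by construction.

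Leaving out 1 mouse moved the count of genes higher between 1 (without FLT-BuOE mouse 1) and 20 (without FLT-BuOE mouse 3), and lower between 2 (without FLT-SAL mouse 2 or FLT-BuOE mouse 1) and 18 (without GC-SAL mouse 3, with 8 higher). Without FLT-BuOE mouse 2 there were 2 higher and 5 lower, without FLT-BuOE mouse 3 16 lower, and without GC-SAL mouse 2 5 higher and 12 lower. The ranges were 0 to 1 on the ground (1 without GC-SAL mouse 3), 2 to 5 for the interaction (5 without FLT-SAL mouse 3, GC-SAL mouse 3 or FLT-BuOE mouse 3), 2 to 11 for CT minus CA (2 without FLT-SAL mouse 2 or FLT-BuOE mouse 1, 4 without FLT-SAL mouse 1), 5 to 26 for CT minus DG (26 without FLT-BuOE mouse 3 and 5 to 8 without any other flight mouse), 0 for CT minus FCT, -0.55 to -0.34 for the myelin median, -0.23 to -0.045 for the pan-neuronal median and -0.00084 to 0.10 for the glutamatergic median.

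With the replicate number as a block, 11 genes were higher and 21 lower, among them all 11 genes. Same-numbered mice did not deviate together (correlations of deviations -0.04 to 0.08 in flight and 0.04 to 0.09 on the ground), so the numbers were not taken to pair the mice. The effect of depth on genes near the negative-control level was not tested.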
